A study of Sus scrofa with 6 samples.

Results

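The miR-181 family was followed in small extracellular vesicles (s-EVs) of porcine follicular fluid, the fluid that surrounds the oocyte in the ovarian follicle. The members were the rows of the deposited miRNA table that carry the names ssc-miR-181a, ssc-miR-181b, ssc-miR-181c, ssc-miR-181d-5p and ssc-miR-181d-3p (ssc for Sus scrofa, left out below), 5 of 453 miRNAs. They are the only rows of that table named miR-181. All 5 passed the filter on low values, a mean above 1 CPM (read counts scaled to the size of the library) in at least one group, which 309 of the 453 miRNAs passed.

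The oocyte of each follicle had been stained with lissamine green B, a vital dye, and fluid was pooled as high quality (HQ) where the oocyte remained unstained and as low quality (LQ) where it was stained. Both pools came from prepubertal Landrace × Large White gilts from a slaughterhouse, with no treatment, and 0.5 mL of fluid was used for each of 3 biological replicates per group. The sample labels give follicles of 2 to 6 mm. The methods of the paper state a narrower range of follicle size. They also give a larger pooled volume per replicate, from which the 0.5 mL was taken after filtering. Which cells released the vesicles is not known.

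miRNAs are short RNAs that guide the silencing complex to messenger RNAs, mainly by pairing of the seed, bases 2 to 8 from their 5′ end. The miR-181 family is best known from lymphocytes, where miR-181a tunes the sensitivity of developing T cells in mice. In mouse granulosa cells, the somatic cells that feed the oocyte, miR-181a was described as a repressor of an activin receptor and of proliferation. In rat heart miR-181c enters mitochondria and lowers a mitochondrially encoded subunit of cytochrome c oxidase. These roles are background from other species and were not measured here.

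The mature sequences are shown because they define the family and show which members are hard to tell apart by short reads. They were read from the RefSeq annotation of Sscrofa11.1, 5′ to 3′, with the seed in capitals.
miR-181a: aACAUUCAacgcugucggugaguu
miR-181b: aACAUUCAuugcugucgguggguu
miR-181c: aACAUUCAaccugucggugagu
miR-181d-5p: aACAUUCAuuguugucgguggguu
miR-181d-3p: cCCACCGAgggaugaaugucac
The 4 members from the 5′ arm share 1 seed, and no other of the 369 mature miRNA names in that annotation has it. miR-181d-3p, from the other arm of its hairpin, has a seed of its own. Counted from 1 at the 5′ end, the first-named member of each pair gives the first base and the position. miR-181a and miR-181b differ by A9U, C10U and A21G, and miR-181b and miR-181d-5p differ only by C12U (95.8% identity over 24 bases). miR-181c lacks the base at position 11 of miR-181a and the last base, and is otherwise identical to it over 22 bases. The sources used here do not say how reads that fit more than one of these were assigned, so the split between miR-181b and miR-181d-5p and between miR-181a and miR-181c is uncertain.

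The members come from 3 pairs of hairpins in Sscrofa11.1, each pair on one strand. On chromosome 10 the mature miR-181a lies at chr10:21696711-21696734 (minus strand) and miR-181b at chr10:21696538-21696561 (minus strand). Their hairpins are 81 bases apart, in an intron of the protein-coding gene model LOC110255652, on its strand. On chromosome 1 miR-181a lies at chr1:265497258-265497281 and miR-181b at chr1:265499123-265499146, both on the plus strand. This pair, with 1782 bases between the hairpins, lies in an intron of NR6A1 on the opposite strand. NR6A1 encodes the germ cell nuclear factor, a nuclear receptor known from oocytes and spermatogenic cells. Since each of miR-181a and miR-181b has the same mature sequence at both loci, its reads cannot be assigned to chromosome 1 or 10. On chromosome 2 miR-181c lies at chr2:65280001-65280022 and miR-181d-5p at chr2:65279821-65279844, both on the minus strand and between annotated genes, with 97 bases between the hairpins. No other annotated miRNA lies within 10 kb of any member.

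The hairpin of miR-181d (chr2:65279773-65279852, minus strand, 80 bases) is shown because it is the only one with both arms in the table. Its mature arms are in capitals, the 5′ arm first.
miR-181d hairpin: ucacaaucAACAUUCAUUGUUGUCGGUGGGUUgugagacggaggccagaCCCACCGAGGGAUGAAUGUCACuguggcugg

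The deposited values are CPM adjusted by the trimmed mean of M-values (TMM). They sum to 948868, 915120 and 938323 CPM in HQ replicates 1 to 3. In LQ replicates 1 to 3 they sum to 1103610, 1033600 and 1075960 CPM. Every HQ sum is below every LQ sum, so the scaling differs between the groups. Values within a library advance in equal steps, the size of the lowest non-zero one. With that step taken as 1 read, the HQ libraries held 1643814 to 2057437 miRNA reads. LQ replicates 1 to 3 held 898530, 2343594 and 3159116 reads, so that 1 read counts for 1.23 CPM in LQ replicate 1 but for 0.341 CPM in LQ replicate 3. Read numbers below are implied in this way. Their intervals, 95% and exact, cover counting error only. Whether PCR copies, which are not independent molecules, were removed is not known.

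The family was a minor part of the s-EV cargo, and miR-181a and miR-181b made up most of it. The 5 members summed to 122, 191 and 144 CPM in HQ replicates 1 to 3, against 163, 127 and 98.4 CPM in LQ replicates 1 to 3. These ranges overlap, and the highest and the lowest sums are those of HQ replicate 2 and LQ replicate 3. As a share of all miRNA signal the family amounted to 0.0163% ± 0.00414 (SD, n = 3) in HQ s-EVs, against 0.0121% ± 0.00283 (SD, n = 3) in LQ s-EVs. Together miR-181a and miR-181b took 83.7% to 88.4% of the family sum in HQ and 82.4% to 86.5% in LQ. By group mean, miR-181a ranked 151 of 453 miRNAs in HQ and 169 in LQ, and miR-181b ranked 157 in HQ and 158 in LQ. The other 3 members ranked between 231 and 275 in HQ and between 237 and 282 in LQ.

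Over all 6 libraries the order of mean levels was miR-181b (61.4 CPM), miR-181a (59.5 CPM), miR-181d-5p (8.82 CPM), miR-181c (8.74 CPM) and miR-181d-3p (2.55 CPM). Neighbours in this order were compared within libraries by an exact sign-flip permutation test of the log2 ratio of CPM + 0.5 (two-sided, 4 pairs). The pairs were chosen by the levels in these same 6 libraries, so their p-values are no independent evidence of the order. miR-181a stood above miR-181d-5p in 6 of 6 libraries, with a mean log2 ratio of 2.72 ± 0.57 (SD, n = 6). Its exact p was 0.03125, the smallest that 6 libraries allow, and 0.0625 after Benjamini-Hochberg adjustment. miR-181c stood above miR-181d-3p in 6 of 6 libraries, with a mean log2 ratio of 1.60 ± 0.88 (SD, n = 6, exact permutation p = 0.03125, adjusted 0.0625). Over both groups together, miR-181b and miR-181a did not differ beyond their spread (0.07 ± 0.31 (SD, n = 6), higher in 3 of 6 libraries, exact permutation p = 0.594, adjusted 0.792). Nor did miR-181d-5p and miR-181c (-0.0050 ± 0.51 (SD, n = 6), higher in 1 of 6 libraries, exact permutation p = 1.0, adjusted 1.0). The 3 libraries with miR-181b above miR-181a were the LQ ones. The mean for that pair thus pools groups of opposite sign, and its SD includes the difference between them. The place of miR-181d-5p above miR-181c in this order rests on LQ replicate 2, without which the mean log2 ratio was -0.21. Small-RNA libraries also ligate some sequences better than others, and the part of this in the order was not tested.

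**Figure D1:**
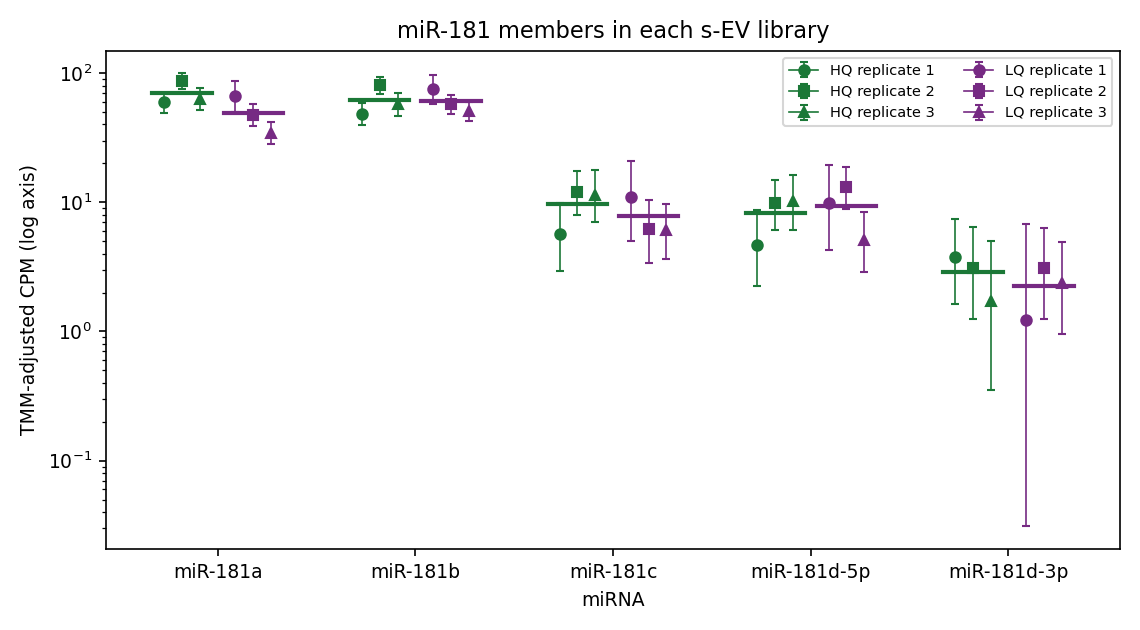
TMM-adjusted CPM (log axis) of the 5 miR-181 members in each s-EV library. Points are libraries with exact 95% counting intervals, horizontal lines are group means, and the HQ and LQ points of each member overlap, with miR-181a and miR-181b between 34.4 and 86.3 CPM and the other members at 13.2 CPM or less.

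Differences of the members between HQ and LQ s-EVs were tested with limma on log2(CPM + 0.5) over the 309 miRNAs. Of these, 82 (26.5%) had an adjusted p under 0.05, and 135 (43.7%) had no overlap between the 3 HQ and the 3 LQ values. Among the miR-181 members 0 of 5 passed at an adjusted p under 0.05 in limma, 0 of 5 at an unadjusted p under 0.05, and 0 of 5 had groups without overlap, where 21.0% of the tested miRNAs had HQ wholly above LQ and 22.7% wholly below. No other tool was run here. The log2 fold changes of HQ against LQ were positive for 4 members and negative for 1, with a median of 0.28, beside 0.079 for all tested miRNAs. Fewer vesicles from one cell type and less of a miRNA per vesicle cannot be told apart in such pooled samples.

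miR-181a, the member with the largest difference, was at 59.1, 86.3 and 63.4 CPM in HQ replicates 1 to 3, against 66.3, 47.6 and 34.4 CPM in LQ replicates 1 to 3. LQ replicate 1 lay inside the HQ range, while LQ replicates 2 and 3 lay below every HQ library. HQ libraries averaged 69.6 ± 14.6 CPM and LQ libraries 49.5 ± 16.0 CPM (SD, n = 3 each). The log2 fold change was 0.52 (standard error 0.30, 95% interval -0.10 to 1.14, adjusted p = 0.199 from limma), and 49.2% of the tested miRNAs changed by less. On the linear scale this interval runs from 0.932-fold to 2.20-fold. LQ replicate 1, which overlapped the HQ libraries, was also the shallowest library. Its counting interval for miR-181a was 49.8 to 86.5 CPM, above the values of LQ replicates 2 and 3. The part of depth in the overlap was not tested. Without LQ replicate 1 the log2 fold change was 0.75 (95% interval 0.13 to 1.38, adjusted p = 0.0558 from limma), and over all 15 alternative settings it lay between 0.29 and 0.75 with an adjusted p of 0.0558 to 0.620. Leaving LQ replicate 1 out also raised the count of all miRNAs with an adjusted p under 0.05 in limma from 82 to 109.

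miR-181b, encoded beside miR-181a at both loci, was at 48.3, 80.1 and 57.1 CPM in HQ replicates 1 to 3, against 74.9, 57.3 and 50.4 CPM in LQ replicates 1 to 3. The groups covered nearly the same range. HQ libraries averaged 61.8 ± 16.4 CPM and LQ libraries 60.9 ± 12.6 CPM (SD, n = 3 each), with a log2 fold change of 0.0097 (95% interval -0.59 to 0.61, adjusted p = 0.983 from limma). The interval reaches a 0.666-fold and a 1.52-fold difference and leaves out a fold of 2 in either direction.

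miR-181c was at 5.63, 12.0 and 11.4 CPM in HQ replicates 1 to 3, against 11.1, 6.17 and 6.13 CPM in LQ replicates 1 to 3. HQ replicate 1 stood with the lower LQ libraries, and LQ replicate 1 with the higher HQ libraries. The values rest on 12, 27 and 20 implied reads in HQ and on 9, 14 and 18 in LQ, and the log2 fold change was 0.28 (95% interval -0.65 to 1.21, adjusted p = 0.691 from limma).

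miR-181d-5p, the neighbour of miR-181c on chromosome 2, was at 4.69, 9.79 and 10.3 CPM in HQ replicates 1 to 3, against 9.83, 13.2 and 5.11 CPM in LQ replicates 1 to 3. The lowest HQ and the lowest LQ library were close to each other, and LQ replicate 2 was highest. The log2 fold change was -0.16 (95% interval -1.12 to 0.81, adjusted p = 0.847 from limma), the only negative one of the family. It turned positive when every library was scaled to the same total (0.030) and after GC correction (0.089).

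miR-181d-3p, the opposite arm of the same hairpin, was at 3.75, 3.11 and 1.71 CPM in HQ replicates 1 to 3, against 1.23, 3.09 and 2.38 CPM in LQ replicates 1 to 3. These are 8, 7 and 3 implied reads in HQ, and 1, 7 and 7 in LQ. The single read of LQ replicate 1 has an exact interval of 0.0311 to 6.84 CPM, which covers every other library. The log2 fold change was 0.31 (95% interval -1.04 to 1.65, adjusted p = 0.771 from limma), and it was -0.084 after GC correction. This interval includes a fold of 2 in either direction.

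**Figure D2:**
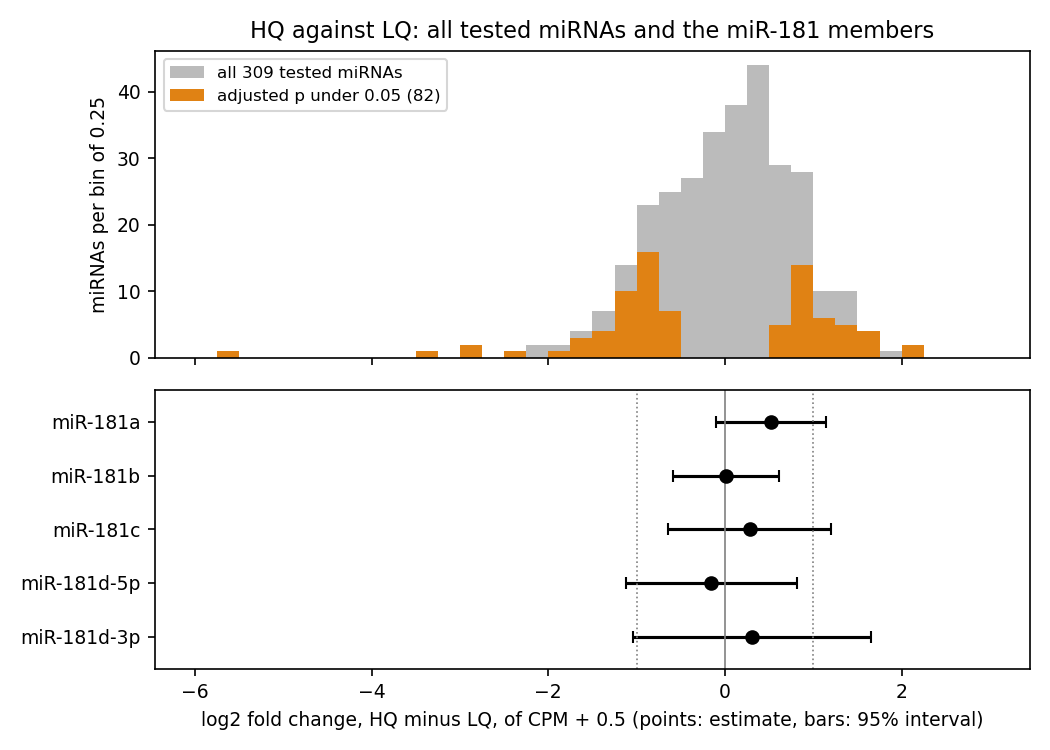
Log2 fold change of HQ minus LQ (CPM + 0.5). Upper panel, number of miRNAs per bin for all 309 tested miRNAs and for the 82 with an adjusted p under 0.05; lower panel, the 5 miR-181 members with 95% intervals from limma, all of which include 0, and dotted lines at a fold of 2.

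The SD between replicates was above that expected from counting in both groups for 4 members, and below it for miR-181d-3p. Each SD rests on 3 libraries and has no interval, and whether it differs from that of counting was not tested. For miR-181a the SD between replicates was 14.6 CPM in HQ and 16.0 CPM in LQ, against 5.84 and 6.17 CPM from counting alone. For miR-181b these were 16.4 and 12.6 CPM, against 5.50 and 6.70 CPM from counting alone. For miR-181c the SD of the HQ libraries was 3.52 CPM and that of the LQ libraries 2.83 CPM, with 2.20 and 2.48 CPM from counting. For miR-181d-5p the HQ libraries had an SD of 3.09 CPM and the LQ libraries one of 4.08 CPM, beside 2.03 and 2.56 CPM from counting. For miR-181d-3p the SD of 1.04 CPM in HQ and 0.939 CPM in LQ was below the 1.17 and 1.11 CPM that counting alone gives.

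Since a ratio within a library does not depend on how libraries are scaled, the members were also set against each other, in 7 pairs. The tests used log2 ratios of CPM + 0.5, which do depend on scaling where values are low. For miR-181d-5p over miR-181d-3p the difference between groups was -0.46. It was -0.41 with 1 CPM added instead and -0.53 with 0.1 CPM. The ratio of miR-181a to miR-181b was above 1 in every HQ library and below 1 in every LQ library. It was 1.22, 1.08 and 1.11 in HQ replicates 1 to 3, against 0.885, 0.831 and 0.682 in LQ replicates 1 to 3. The mean log2 ratio was 0.18 ± 0.09 (SD, n = 3) in HQ and -0.33 ± 0.19 (SD, n = 3) in LQ, a difference of 0.51. The exact permutation test gave p = 0.1, the smallest that 3 against 3 allow, and 0.6 after adjustment over the 7 pairs. Of all 47586 pairs of tested miRNAs, 37.1% had ratios without overlap between the groups, and 65.0% had a larger difference, so a ratio without overlap is common in these libraries.

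Read by read, the split between miR-181a and miR-181b was close to even. miR-181a had 126, 194 and 111 reads in HQ replicates 1 to 3, which were 55.0%, 51.9% and 52.6% of the reads of both. It had 54, 108 and 101 reads in LQ replicates 1 to 3, which were 47.0%, 45.4% and 40.6%. The exact (Clopper-Pearson) intervals include 50% in 5 of the 6 libraries, and only that of LQ replicate 3 (34.4% to 46.9%) lies below it. Leaving out each library in turn, the difference in log2 ratio ran from 0.40 to 0.59. Its sign could not turn, because the groups do not overlap, so this says nothing of stability.

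**Figure D3:**
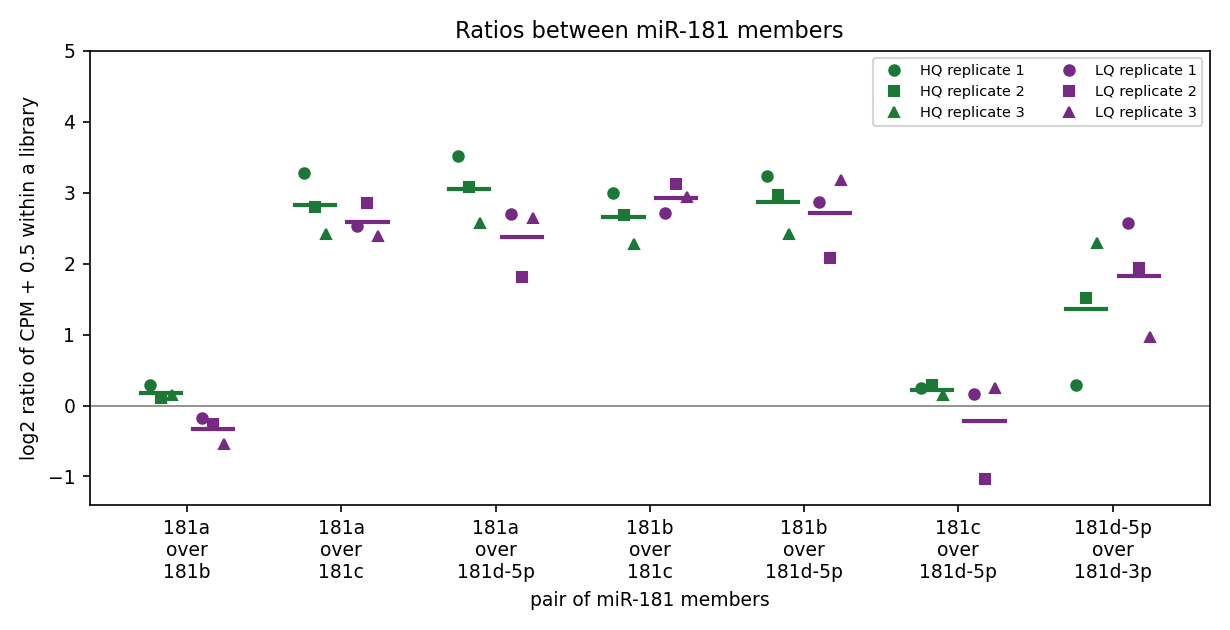
Log2 ratio of CPM + 0.5 within each library for 7 pairs of miR-181 members. Points are libraries and horizontal lines are group means; for miR-181a over miR-181b the 3 HQ points lie above 0 and the 3 LQ points below it, while the groups overlap in the other 6 pairs.

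The other 6 pairs overlapped between the groups, with exact permutation p of 0.3 to 0.6, and 0.6 each after adjustment over the 7 pairs. The ratio of miR-181c to its cluster neighbour miR-181d-5p was 1.20, 1.23 and 1.11 in HQ replicates 1 to 3. It was 1.125 and 1.20 in LQ replicates 1 and 3. These ratios rest on 12 against 10, 27 against 22 and 20 against 18 implied reads in HQ, and on 9 against 8 and 18 against 15 in LQ. With so few reads of uncertain assignment they are imprecise. In LQ replicate 2 the ratio was 0.467, from 14 reads of miR-181c and 30 of miR-181d-5p. The 5′ arm of miR-181d exceeded the 3′ arm in 6 of 6 libraries, by 1.25, 3.14 and 6.00 times in HQ replicates 1 to 3, against 8, 4.29 and 2.14 times in LQ replicates 1 to 3. Only 18, 29 and 21 reads of both arms in HQ, and 9, 37 and 22 in LQ, stand behind these ratios, and in HQ replicate 1 and LQ replicate 3 the exact interval for the share of the 5′ arm reaches below 50% (30.8% to 78.5% and 45.1% to 86.1%).

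In the make-up of the family, miR-181a was the larger of the leading pair in HQ and miR-181b in LQ. miR-181a held 48.6%, 45.1% and 44.0% of the family sum in HQ replicates 1 to 3, against 40.6%, 37.4% and 34.9% in LQ replicates 1 to 3. miR-181b held 39.8%, 41.9% and 39.7% in HQ, against 45.9%, 45.0% and 51.2% in LQ. These shares carry the same values as the ratio of the pair and are no separate evidence. miR-181c held 4.63% to 7.94% in HQ and 4.84% to 6.77% in LQ, and miR-181d-5p 3.86% to 7.14% in HQ and 5.19% to 10.4% in LQ.

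**Figure D4:**
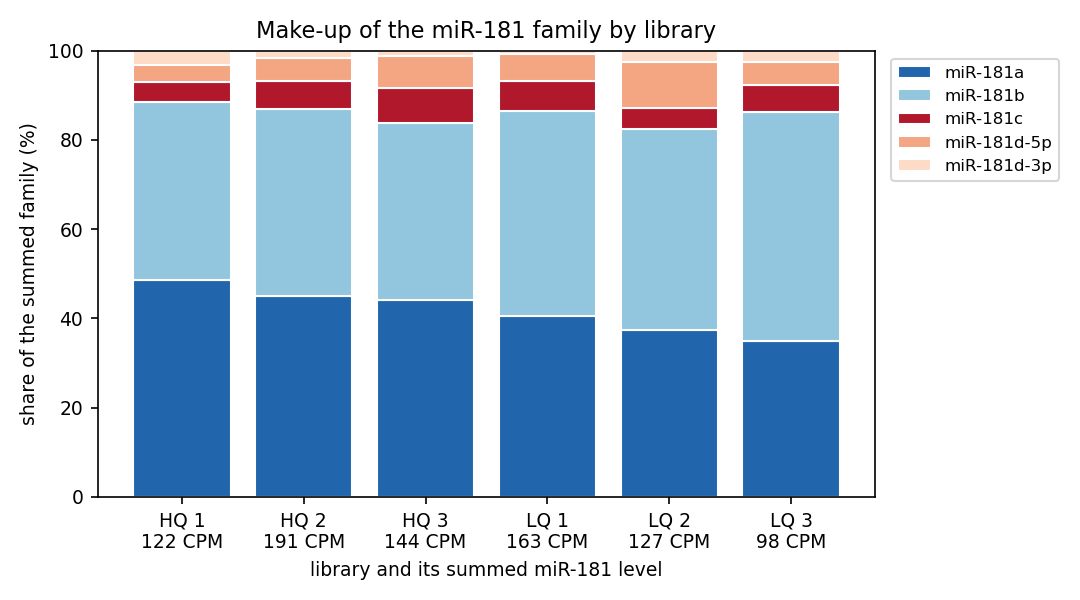
Share (%) of each member in the summed miR-181 CPM of a library, with the sum under each bar. The miR-181a part takes 44.0% to 48.6% in the HQ libraries and 34.9% to 40.6% in the LQ libraries.

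The profiles nearest to miR-181a and to miR-181b over the 6 libraries were those of different miRNAs, which was not tested. Likeness was the root mean square difference of log2(CPM + 0.5) profiles, each centred on its mean, against 252 miRNAs outside the family with a mean above 5 CPM. The profiles nearest to miR-181a were those of miR-103 (0.105), a regulator of insulin sensitivity in mice, miR-26a (0.135) and miR-2483 (0.162), where the median over the 252 miRNAs was 0.528. Each was lowest in LQ replicate 3 and highest in HQ replicate 2, as miR-181a was. miR-103 was at 2341, 2907 and 2556 CPM in HQ replicates 1 to 3, against 2385, 1911 and 1436 CPM in LQ replicates 1 to 3 (log2 fold change 0.47, adjusted p = 0.132 from limma). By limma, miR-26a differed by 0.50 on the log2 scale (adjusted p = 0.132) and miR-2483 by 0.53 (adjusted p = 0.114), and of these 3 only miR-2483 had groups without overlap.
The profiles nearest to miR-181b were those of miR-142-3p (0.133), a miRNA of blood cells, miR-4331-5p (0.151) and miR-140-3p (0.160), against a median of 0.496. miR-142-3p was at 22.1, 36.9 and 30.3 CPM in HQ replicates 1 to 3, against 39.3, 28.7 and 30.3 CPM in LQ replicates 1 to 3. Like miR-181b, all 3 were high in HQ replicate 2 and LQ replicate 1, and none differed past the test (adjusted p of 0.759 to 0.891 from limma). The distance between miR-181a and miR-181b themselves was 0.283, and that between miR-181b and miR-181c 0.275. miR-181d-3p stood farthest from the others, at 0.603 to 0.799. It had 33 implied reads over the 6 libraries, and the part of counting error in its distance was not tested. These likenesses rest on 6 libraries that all miRNAs share, so they are a description.

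**Figure D5:**
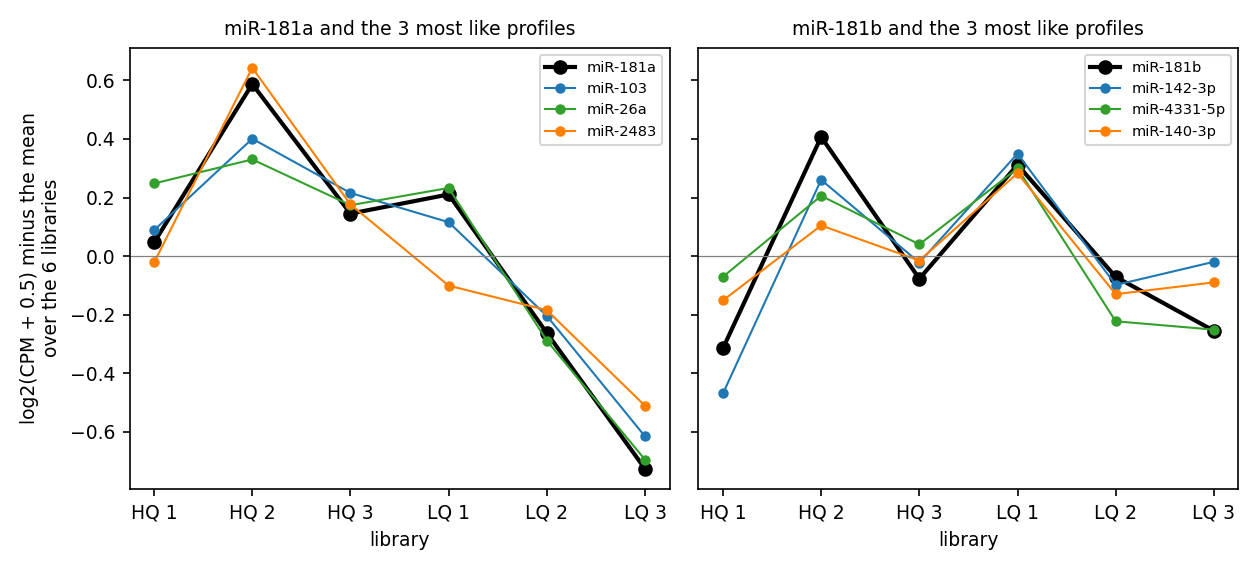
Log2(CPM + 0.5) minus its mean over the 6 libraries for miR-181a (left) and miR-181b (right), each with its 3 nearest profiles; lines join libraries for reading only. miR-181a and its neighbours are lowest in LQ replicate 3, and miR-181b and its neighbours are high in HQ replicate 2 and LQ replicate 1.

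The list of other miRNAs that act on mitochondria, as miR-181c does in rat, held 7. Of these, 2 were lower in HQ past the limma test, 0 were higher and 5 did not pass, beside 14.9% lower and 11.7% higher among all tested miRNAs. The share past the test in either direction was close to the 26.5% of all tested miRNAs, and the median log2 fold change was -0.55, beside 0.079. miR-210, a hypoxia-induced repressor of iron-sulfur cluster assembly, was at 1199, 1309 and 1595 CPM in HQ replicates 1 to 3, against 2264, 2696 and 3330 CPM in LQ replicates 1 to 3. Every HQ library lay below every LQ library (log2 fold change -1.01, standard error 0.22, adjusted p = 0.00365 from limma). The other one past the test was miR-338, a neuronal miRNA at 1.88, 0.890 and 0 CPM in HQ replicates 1 to 3, against 4.91, 8.38 and 10.2 CPM in LQ replicates 1 to 3, which passed the filter on low values only through LQ, its HQ mean being 0.922 CPM (log2 fold change -2.76, adjusted p = 0.00661 by limma). The most abundant of the list, miR-146a-5p and miR-21-5p, differed by -0.16 (limma adjusted p = 0.549) and -0.38 (limma adjusted p = 0.151) on the log2 scale.

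Of 7 miRNAs of lymphocytes and myeloid cells, 1 was lower in HQ past the limma test and 6 did not pass, a share close to the 14.9% of all tested miRNAs that were lower, with a median log2 fold change of -0.15. The 1 was miR-142-5p, at 36.6, 28.0 and 31.4 CPM in HQ replicates 1 to 3, against 52.8, 93.1 and 115 CPM in LQ replicates 1 to 3 (log2 fold change -1.36, limma adjusted p = 0.00365). After GC correction it missed the threshold (limma adjusted p = 0.0592). The other arm, miR-142-3p, was at -0.15 on the log2 scale with overlapping groups (limma adjusted p = 0.759). miR-223, a myeloid miRNA, was at -0.39 on the log2 scale (limma adjusted p = 0.302). miR-155-5p, induced in activated lymphocytes, was higher in every HQ library without passing the test (0.52, adjusted p = 0.146 from limma). The most abundant of the list, miR-146a-5p, was at -0.16 on the log2 scale (limma adjusted p = 0.549). On that scale miR-146b was at 0.36 (limma adjusted p = 0.689) and miR-150 at 0.093 (limma adjusted p = 0.889).

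Some markers of cells that could have released vesicles also differed between the groups. Among all tested miRNAs 11.7% were higher and 14.9% lower in HQ, and the marker lists were not tested against these shares. None of the marker miRNAs was at 0 in all libraries. The 5 leukocyte markers are all in the list of lymphocyte and myeloid miRNAs above, so they are no separate evidence. They summed to 193 to 213 CPM in HQ and 217 to 318 CPM in LQ, and 1 of them passed (lower). Most of this gap came from the 1 that passed, miR-142-5p. Of the 4 that did not pass, miR-142-3p was at -0.15 (limma adjusted p = 0.759) and miR-223 at -0.39 on the log2 scale. On that scale miR-150 was at 0.093 (limma adjusted p = 0.889) and miR-155-5p at 0.52. The 2 endothelial markers, both arms of miR-126, summed to 874 to 1062 CPM in HQ and 1619 to 2149 CPM in LQ, and 1 of them, miR-126-5p, was lower in HQ (log2 fold change -1.13, adjusted p = 0.00222 from limma), while miR-126-3p was at -0.18 (adjusted p = 0.640).
The 4 erythrocyte markers summed to 2742 to 4024 CPM in HQ and 2567 to 3213 CPM in LQ. miR-486 was higher in HQ (0.91, adjusted p = 0.0158 from limma), miR-451 was lower (-1.18, adjusted p = 0.0403), the most abundant, miR-185, was at 0.14 (adjusted p = 0.691), and miR-144 was listed at 0 in all HQ libraries and in LQ replicate 1. miR-486 did not pass without HQ replicate 1, HQ replicate 2 or LQ replicate 2 (log2 fold change 0.79 to 0.91, limma adjusted p of 0.0614 to 0.0885), with no trend in the variance prior (0.0620) or after GC correction (0.320). miR-451 passed only without LQ replicate 1 among the 6 sets of 5 libraries (log2 fold change -0.91 to -1.28 and limma adjusted p of 0.0596 to 0.214 in the others), and missed the threshold with no filter (0.0585), no trend (0.0606), equal sums (0.0746) and GC correction (0.205). The 6 gonad and granulosa markers summed to 40547 to 89581 CPM in HQ and 61496 to 76760 CPM in LQ, almost wholly from miR-202-5p (-0.069 on the log2 scale, limma adjusted p = 0.877). Of the 5 that could be tested, miR-132 (1.37, limma adjusted p = 0.00259) and miR-202-3p (0.83, limma adjusted p = 0.0287) were higher in HQ. miR-202-3p missed the threshold with no trend (0.121), after GC correction (0.0756) and without HQ replicate 2, HQ replicate 3, LQ replicate 2 or LQ replicate 3 (0.0528 to 0.175). The part of these cell types in the values of the miR-181 members was not tested.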

How the data were processed

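Small RNA of 6 s-EV samples (3 HQ, 3 LQ, as labelled) was sequenced. Per the methods of the paper, the authors used CLC Genomics Workbench to trim reads, map them to Sscrofa11.1 and name them by miRBase. The submitters also list bcl2fastq, Bowtie2 2.2.2 and DESeq2. The deposited table gives a signal, CPM after TMM scaling, for each of 453 miRNAs. The use of molecular identifiers is not stated in the sources read. Implied reads are values divided by the lowest non-zero value of the library (at most 6.66e-05 from whole numbers). Since they are inferred, they served for library depth, shares of reads, counting intervals and the SD expected from counting, and no test between groups used them.

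The 309 miRNAs averaging over 1 CPM in a group were fitted in limma 3.58.1 (R 4.3.3) on log2(CPM + 0.5), trend on, and all 309 p-values were adjusted together (Benjamini-Hochberg). The SD expected from counting is the root of the mean product of value and step. Ratios of members were compared by exact permutation (Python 3.11.15). GC content was known for 82.8% of tested miRNAs, and GC correction subtracted a line on GC fitted to each library's deviations. Alternatives were pseudocounts, filters, no trend, equal library sums, GC correction, the replicate number as a block, and each library left out. The fit was tested on simulated data. Members and lists were chosen with earlier results of these data known. The miRNAs named are the 5 members, the 3 nearest profiles of miR-181a and miR-181b, and the list members that passed the test or were the 2 most abundant in their list. miR-144, miR-146b, miR-150 and miR-155-5p were named after their values were seen.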

Additional observations from a re-analysis of the deposited data

How the results depend on the processing

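No miR-181 member passed limma's test in any of the 15 alternative settings (0 of 5, or 0 of 4 with the filter at 5 CPM). The ratio tests, and the tests of the order of levels with a library left out, cannot reach p under 0.05, so they say nothing of stability. The edgeR test planned as an alternative was not run, because the reads are only inferred. At an unadjusted p under 0.05, 1 member (miR-181a) passed with equal sums, without LQ replicate 1, and with the block added to the GC correction. The count of all miRNAs with an adjusted p under 0.05, 82, was 29 when the variance prior had no trend, and 29 to 109 leaving out each library in turn (29 without HQ replicate 2, 46 without LQ replicate 2, 48 without HQ replicate 1). With the fold and level thresholds of the paper it was 39, against 24 with no trend in the prior, 24 after GC correction, which also left only the 256 miRNAs with a known GC content, and 22 without HQ replicate 2. With equal sums of CPM the split was 60 higher and 27 lower in HQ, against 36 and 46, as the median log2 fold change of all tested miRNAs moved to 0.25, against 0.079. That of miR-181a moved to 0.71, against 0.52, and that of miR-181b to 0.21, against 0.0097.

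The sign of small log2 fold changes turned. That of miR-181d-5p was 0.030 with equal sums and 0.089 after GC correction, with or without the replicate block. That of miR-181d-3p was -0.084 after GC correction with or without the block. Leaving out each library in turn gave -0.19 to 0.17 for miR-181b and -0.52 to 0.18 for miR-181d-5p. The difference in log2 ratio ran from -0.15 to 0.40 for miR-181b over miR-181d-5p and from -0.93 to 0.072 for miR-181d-5p over miR-181d-3p. The mean log2 ratio over libraries ran from -0.21 to 0.050 for miR-181d-5p over miR-181c and from -0.021 to 0.15 for miR-181b over miR-181a. The cause of these turns was not tested.

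With the replicate number as a block, 97 miRNAs and 0 members had an adjusted p under 0.05 in limma, against 82 and 0 without it. The labels name no animal or day that same-numbered libraries share. Deviations of same-numbered libraries correlated at -0.00522, -0.0125 and -0.036 over the tested miRNAs. Counting error in low values also weakens such a correlation, so whether same-numbered samples shared a day or batch is not known. Depth limits miR-181c, miR-181d-5p and miR-181d-3p, with 100, 103 and 33 implied reads over the 6 libraries.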
